A study of Mus musculus with 24 samples.

Results

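The 31 genes described here make, take up, store or export cholesterol, and they were measured in mouse retinal pigment epithelium (RPE) at 8 times of 1 day. They were taken by gene symbol from a table of 54532 genes, and all 31 were found. By role they are 18 enzymes of cholesterol synthesis, 6 genes of SREBP control and 7 genes of LXR-driven efflux, uptake and storage. The RPE is the pigmented layer behind the photoreceptors, whose shed outer segments it takes in each day. All mice were wild type of strain 129S1/SvlmJ with the Leu450 form of Rpe65, kept on a 12 h light cycle and a standard diet. RNA was taken 0, 1, 3, 5, 6, 9, 15 and 16 h after light onset at 7 am, from 3 mice at each time. The purpose given for the series was the circadian control of lysosomal and autophagy genes. Night below means 15 h and 16 h, in the dark phase, and day means 1, 3, 5, 6 and 9 h, while 0 h lies at the switch to light and stays out of that contrast. The age and sex of the mice are not given in the sources used here.

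Cells build cholesterol from acetyl-CoA in the endoplasmic reticulum, through mevalonate, squalene and lanosterol. SREBP transcription factors switch these enzymes on when sterol in that membrane falls: SCAP then carries them to the Golgi for cleavage, and INSIG proteins hold SCAP back when sterol is plentiful. Oxysterols activate the LXR receptors, which switch on the exporters ABCA1 and ABCG1 and the lipoprotein APOE. The RPE receives cholesterol with every outer segment it engulfs and from blood lipoproteins, and it passes cholesterol back out through these exporters.

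Libraries held 14073440 to 17492470 counts. Levels are in CPM, counts scaled by TMM to a common library size, and levels of different genes are compared per kilobase of gene length. A pair of libraries, 15 h mouse 3 and 6 h mouse 3, stood apart, at 199.9 and 49.3 on the first principal component, against -25.1 to -3.5 for the other 22 libraries. Each result is therefore given for all 24 libraries and for the 22 without these 2. All 12 RPE markers were detected, and in the 22 libraries their summed level was 41400 to 53500 CPM at night, 38000 to 51000 by day and 37600 to 44900 at 0 h, although Best1 lay between 2.42 and 5.21 CPM. Markers of other cells were present too: the 10 rod markers summed to 269 to 1310 CPM at night, 287 to 1920 by day and 2180 to 3560 at 0 h. The 10 macrophage markers summed to 2010 to 2360 CPM at night and 2010 to 2900 by day, and the 8 choroid endothelium markers to 353 to 533 and 376 to 982 CPM. The 8 fibroblast and mural cell markers summed to 1740 to 2270 CPM at night and 1700 to 2530 by day. In the test of night against day described below, 3 of these 8 were called in the 22 libraries, against 4.63% of all genes. That test called 2 of the 12 RPE markers, 1 of the 10 macrophage markers and 0 rod or choroid endothelium markers. The test over the 8 times, also described below, called more of them in the 22 libraries, against 15.6% of all genes. It called 6 of the 12 RPE, 4 of the 10 macrophage and 5 of the 8 choroid endothelium markers. Of the 8 fibroblast and mural cell markers it called 5, and of the 10 rod markers 0. No marker in these lists was at 0, while Slc4a1 of the red blood cell list used below had a lowest level of 0 CPM in the 22 libraries. What part such cells had in any result below was not tested. In a bulk sample, fewer cells of a type and less RNA per cell cannot be told apart.

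Of the 31 genes, none passed any test in 24 libraries, and 10 passed at least 1 test in the 22. A gene is called at an adjusted p under 0.05 in edgeR's quasi-likelihood test, with Benjamini-Hochberg adjustment over all genes tested. In 24 libraries 0 of 31 were called over the 8 times, for a 24 h component or between night and day, where 1.08%, 1.67% and 1.39% of all 18065 genes tested were called. Unadjusted p-values under 0.05 were found for 6, 7 and 9 of the 31, and for 3070, 2913 and 3211 of all 18065 genes. DESeq2 called 3, 3 and 2 of them in the same libraries, and limma-voom 0, 0 and 1. In 22 libraries 9 of 31 (29.0%) were called over the 8 times, against 15.6% of all genes. For a 24 h component 5 of 31 (16.1%) were called, against 6.12% of all genes, and between night and day 3 of 31 (9.7%), against 4.63%. The 10 called genes were 5 synthesis enzymes, 2 genes of SREBP control and 3 of the LXR group, and the remaining 21 were called in none of the 3 tests. Without the libraries of 15 h and 16 h the 22 gave 5 of 31 over the 8 times and 0 for a 24 h component, and without 15 h mouse 2 they gave 1 of 31 between night and day. All 31 genes passed the filter on low counts in both sets of libraries. Only 1 day was sampled and no mouse was taken between 9 h and 15 h, so the 24 h test describes a shape within that day and cannot show that it recurs.

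Of the 18 synthesis enzymes 2, Dhcr7 and Hsd17b7, fell at night in the 22 libraries and the others did not pass that test. Night minus day was negative for 17 of the 18 (94.4%), with a median of -0.13 on the log2 scale. For Ebp and Tm7sf2, both at -0.02, the sign turned in 4 and 2 of 26 alternative fits. Over all 18388 genes tested 52.0% were negative and the median was -0.008. In 24 libraries 11 of the 18 (61.1%) were negative, with a median of -0.09, and the other 7 were positive. By time, the enzymes stood highest at 6 h, where 16 of 18 were above their own mean over the 8 times and the median was 0.19 higher (log2, all genes -0.01). At 15 h and 16 h 6 and 3 of the 18 were above it, with medians of -0.12 and -0.07. The day times were not alike: 15 and 13 of the 18 were above at 1 h and 5 h (medians 0.08 and 0.05), but 5 and 6 at 3 h and 9 h (medians -0.06 and -0.04). The 6 h and 15 h means each rest on 2 mice in these 22 libraries. As an example, Dhcr7 had means of 58.6 ± 1.19 CPM at 6 h (SD, n = 2) and 43.5 ± 0.779 CPM at 16 h (SD, n = 3).

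**Figure D1:**
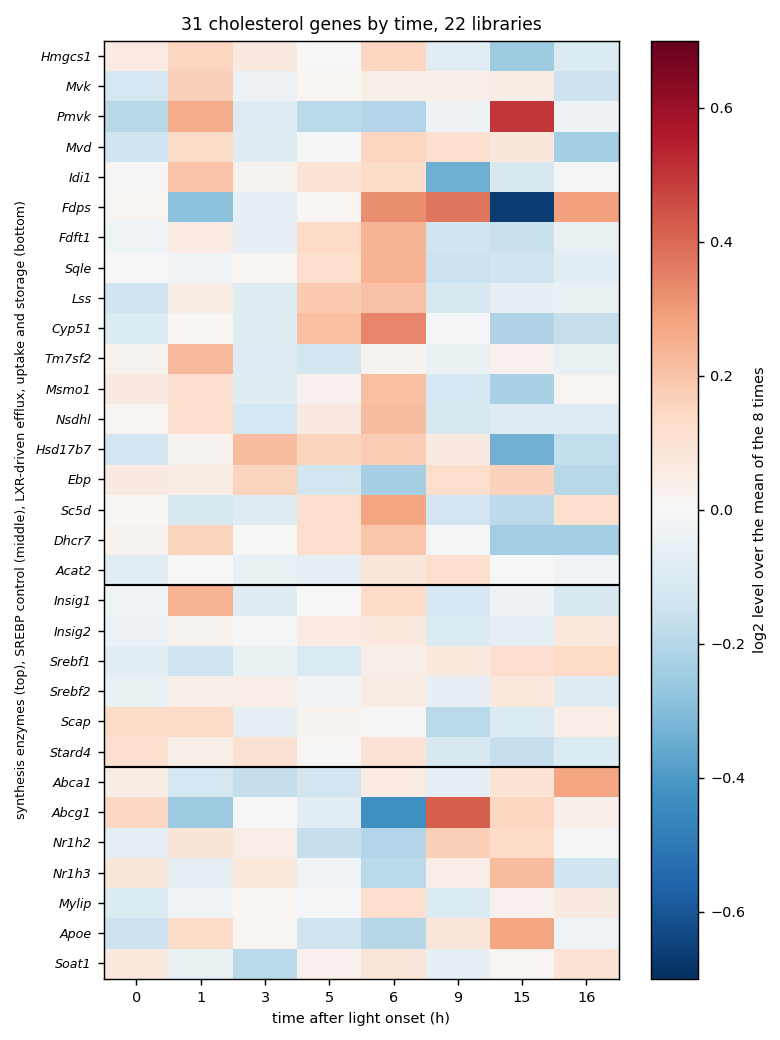
Level of each of the 31 genes at each of the 8 times in 22 libraries, as log2 over that gene's mean of the 8 times (colour, red above and blue below), with 1 row per gene and horizontal lines between the 3 roles. The 6 h column is red for 16 of the 18 synthesis enzymes, and the 15 h column is red for all 7 genes of LXR-driven efflux, uptake and storage.

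Dhcr7, the reductase of the last step to cholesterol (ENSMUSG00000058454, chr7:143823145-143848410 on GRCm38, plus strand), fell at night in the 22 libraries. Its level at night was 39.4 and 47.2 CPM at 15 h and 44.2, 43.5 and 42.7 CPM at 16 h, against a lowest, median and highest of 47.5, 54.3 and 63.1 CPM over the 14 day libraries. No night library reached the lowest day library. The means were 43.4 ± 2.83 CPM at night (SD, n = 5) and 54.4 ± 4.54 CPM by day (SD, n = 14), a log2 difference of -0.34 (SE 0.06, adjusted p = 0.000536). A 24 h component was also called, with a fitted ratio of peak to trough of 0.37 ± 0.07 on the log2 scale and a peak at 4.1 ± 0.7 h (jackknife SE, adjusted p = 0.00275), as was the test over the 8 times (adjusted p = 0.00614). All 3 calls held when any of the 22 libraries was left out, and without both dark times the adjusted p was 0.297 over the 8 times and 0.716 for a 24 h component. The libraries that stood apart lay below all 14 of these day libraries, with 22.7 CPM in 15 h mouse 3 and 42.0 CPM in 6 h mouse 3. With them in the fit the difference was -0.43 (SE 0.11, adjusted p = 0.0568), the adjusted p of the 24 h component was 0.0873 and that over the 8 times 0.274, and the night and day ranges overlapped.

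Hsd17b7, the sterol ketoreductase that works beside Nsdhl and Msmo1 (ENSMUSG00000026675, chr1:169949535-169969241, minus strand), fell at night as well. It had 10.8 and 8.87 CPM at 15 h and 11.1, 10.6 and 11.4 CPM at 16 h, against 11.6, 13.5 and 15.5 CPM as the lowest, median and highest of the day libraries. As for Dhcr7, the 2 groups did not overlap, although the 3 libraries of 0 h spanned 9.24 to 13.3 CPM. The means were 10.5 ± 0.982 CPM at night (SD, n = 5) and 13.6 ± 1.24 CPM by day (SD, n = 14), and the log2 difference was -0.39 (SE 0.09, adjusted p = 0.0126). Its 24 h component had a ratio of 0.47 ± 0.10 (log2, jackknife SE) with a peak at 5.7 ± 0.9 h (adjusted p = 0.0174). Unlike Dhcr7, Hsd17b7 was not called over the 8 times (adjusted p = 0.0668). Both calls were lost without 15 h mouse 2, the lowest of the 22 libraries, where the difference was -0.32 (adjusted p = 0.158) and the 24 h adjusted p 0.0622. Without both dark times the 24 h adjusted p was 0.262. In 24 libraries the difference was -0.51 (SE 0.17, adjusted p = 0.152), with 3.24 CPM in 15 h mouse 3 and 7.75 CPM in 6 h mouse 3. With them the adjusted p was 0.269 for a 24 h component and 0.418 over the 8 times.

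**Figure D2:**
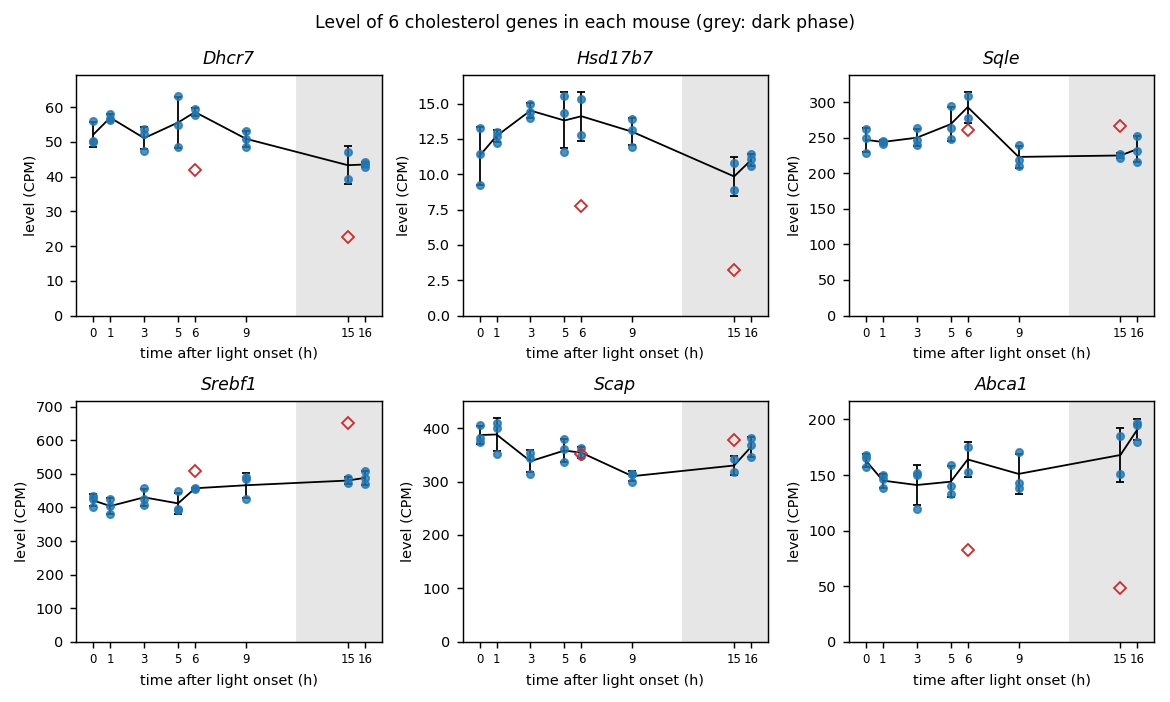
Level in CPM (vertical axis, from 0) against hours after light onset (horizontal axis) for 6 of the genes, with 1 filled circle per mouse for 22 libraries, open red diamonds for 6 h mouse 3 and 15 h mouse 3, and a line for the mean ± SD of the 22 libraries at each time; the grey area is the dark phase. Dhcr7 and Hsd17b7 lie lowest in the dark phase and Abca1 highest, while the diamonds lie below every circle of Hsd17b7 and Abca1.

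SREBPs are known to act at sterol regulatory elements together with the CCAAT-binding factor NF-Y. Upstream sequences are therefore shown for Dhcr7, Hsd17b7 and Hmgcs1, the last being the enzyme whose window matched the sterol element core given below. They are the 250 bases before the start of transcription on the gene's own strand, from RefSeq on GRCm38.p6, with motif matches in capitals. The motifs searched on both strands were the sterol regulatory element core TCACNCCAC, the CCAAT box, which reads ATTGG on the other strand, the E-box CACGTG, the D-box TTATGNAA and the LXR element, a pair of AGGTCA sites spaced by 4 bases with at most 1 mismatch. RefSeq gave 3 starts for Dhcr7, and those with a match are printed, at chr7:143829964-143830213 and chr7:143823149-143823398. The other windows are chr1:169969206-169969455 (minus strand) for Hsd17b7 and chr13:119690101-119690350 (plus strand) for Hmgcs1.
Dhcr7, start inside the gene: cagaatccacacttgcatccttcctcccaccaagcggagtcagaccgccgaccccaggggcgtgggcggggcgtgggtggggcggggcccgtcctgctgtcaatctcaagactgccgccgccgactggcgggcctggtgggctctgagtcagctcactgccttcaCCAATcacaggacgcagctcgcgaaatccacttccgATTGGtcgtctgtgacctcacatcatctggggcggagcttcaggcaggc
Dhcr7, first part of the gene: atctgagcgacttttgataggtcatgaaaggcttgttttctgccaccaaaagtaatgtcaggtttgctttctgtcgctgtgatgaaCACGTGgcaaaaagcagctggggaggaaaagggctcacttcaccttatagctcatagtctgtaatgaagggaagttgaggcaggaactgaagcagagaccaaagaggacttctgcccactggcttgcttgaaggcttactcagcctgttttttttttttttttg
Hsd17b7: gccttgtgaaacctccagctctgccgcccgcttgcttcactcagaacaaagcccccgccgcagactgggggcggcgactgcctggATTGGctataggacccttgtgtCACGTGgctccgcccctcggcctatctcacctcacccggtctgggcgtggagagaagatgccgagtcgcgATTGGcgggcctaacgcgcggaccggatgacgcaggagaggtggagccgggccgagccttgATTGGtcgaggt
Hmgcs1: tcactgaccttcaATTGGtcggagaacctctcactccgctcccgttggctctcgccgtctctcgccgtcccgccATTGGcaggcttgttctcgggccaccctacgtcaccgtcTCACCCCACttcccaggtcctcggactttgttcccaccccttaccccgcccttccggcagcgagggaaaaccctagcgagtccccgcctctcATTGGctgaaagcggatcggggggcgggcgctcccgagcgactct
Windows of 300 bases, 250 before and 50 after the start, were matched for 26 of the 31 genes, 15 of them synthesis enzymes. A CCAAT box was found for 14 of these 15 enzymes (14 of their 18 windows), against 37.4% of all 32851 windows and 41.1% of 27025 genes. Dhcr7 had a pair of CCAAT boxes at -85 and -49, Hsd17b7 had them at -165, -73 and -12, and Hmgcs1 at -237, -176, -45 and 11, counted from the start. The exact core TCACNCCAC was matched only before Hmgcs1 among the 26 genes, at -137, and in 1.24% of all windows. E-boxes lay at -164 in Dhcr7, at -143 in Hsd17b7, at -98 in Sc5d, at -101 in Insig1, at -147 in Abca1 and at 29 or -40 in Scap, depending on the start, and 7.15% of all windows held one. No window of the 26 genes held a match to the D-box or to the LXR element as defined above, which 3.38% and 0.25% of all windows held. A match is a run of letters and not a measured site, and its absence holds for these windows and these patterns only. LXR sites with more than 1 mismatch, and any departure from the other patterns, were not searched for.

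Sqle, squalene epoxidase, had the highest level per length of the synthesis enzymes (44.5 CPM per kb, mean of 22 libraries). Its level differed over the 8 times (adjusted p = 0.0152), with 278 and 308 CPM at 6 h and 210, 219 and 240 CPM at 9 h. The means were 293 ± 21.7 CPM at 6 h (SD, n = 2) and 223 ± 15.5 CPM at 9 h (SD, n = 3), so that the mice of 6 h lay above all those of 9 h. The call was lost without 6 h mouse 2 (adjusted p = 0.081) and in 24 libraries (adjusted p = 0.316), where 6 h mouse 3 had 261 CPM. Night minus day was -0.16 (SE 0.05, adjusted p = 0.0661), from 230 ± 13.9 CPM at night and 253 ± 26.9 CPM by day. Fdft1, squalene synthase, was next per length, at 26.0 CPM per kb. It had 129 and 130 CPM at 6 h, 90.1, 104 and 105 CPM at 9 h, 96.5 and 100 CPM at 15 h and 102, 96.4 and 119 CPM at 16 h, and was not called (adjusted p over the 8 times 0.0511). The 15 h mouse 3 had 345 CPM of Fdft1, and 18.3% of its exonic bases are shared with Ctsb on the other strand, whose reads cannot be told apart here.

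Sc5d and Pmvk were called over the 8 times and had unlike shapes. Sc5d, lathosterol desaturase, had 60.6 and 55.2 CPM at 6 h, 43.5 and 40.8 CPM at 15 h and 47.0, 48.3 and 59.8 CPM at 16 h (adjusted p = 0.0375). The highest mouse of 16 h lay between those of 6 h, and the call held in 11 of the 22 fits with 1 library left out. It was lost without 0 h mouse 2, mouse 1 or 2 of 1 h, 3 h mouse 1, 5 h mouse 1, or mouse 1 or 2 of 6 h, 9 h or 15 h, with adjusted p up to 0.133 (6 h mouse 1), and with limma-voom (adjusted p = 0.0644). Pmvk, phosphomevalonate kinase, was the 1 enzyme with a positive night minus day in 22 libraries, at 0.27 (SE 0.09, adjusted p = 0.0767). It had 13.8 and 17.9 CPM at 6 h, 27.1 and 24.3 CPM at 15 h and 19.0, 17 and 17.6 CPM at 16 h (adjusted p over the 8 times 0.0124). The highest level was thus at 15 h and not at 16 h, and the mice of 1 h, with 23.1, 22.4 and 20.1 CPM, also lay above those of 16 h. The call was lost without 15 h mouse 1. Without both dark times it was lost as well (adjusted p = 0.154). In 15 h mouse 3 Pmvk had 70.6 CPM, and in 24 libraries the adjusted p over the 8 times was 0.129 for Pmvk and 0.359 for Sc5d.

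Beside Fdft1, 12 more synthesis enzymes were called in no test. Their means over 22 libraries were between 0.99 CPM for Fdps, farnesyl diphosphate synthase, and 124 CPM for Msmo1, methylsterol monooxygenase. All 12 had a negative night minus day in the 22 libraries, between -0.29 for Cyp51, lanosterol demethylase, and -0.02 for Ebp, a sterol isomerase, and Tm7sf2, a sterol reductase. Cyp51 had 35.4 ± 0.98 CPM at night (SD, n = 5) and 42.6 ± 7.79 CPM by day (SD, n = 14), with adjusted p = 0.123, and its night and day libraries overlapped. Hmgcs1, HMG-CoA synthase, had 75.0 ± 6.53 CPM at night and 86.9 ± 9.63 CPM by day, a difference of -0.24 (SE 0.08, adjusted p = 0.0928). Mvk, mevalonate kinase, Mvd, mevalonate diphosphate decarboxylase, Idi1, isopentenyl diphosphate isomerase, Lss, lanosterol synthase, Nsdhl, a sterol dehydrogenase, and Acat2, cytosolic acetoacetyl-CoA thiolase, lay between -0.15 and -0.03. Msmo1 was at -0.14 (SE 0.09) and Fdps at -0.27 (SE 0.25). Some of these levels are uncertain, since 39.1% of the 50-base words of Acat2 also occur in other genes such as Acat3 and Tcp1, 17.7% of those of Idi1 and 15.5% of those of Fdps in pseudogenes. Fdps also shares 26.7% of its exonic bases with Gm43738.

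**Figure D3:**
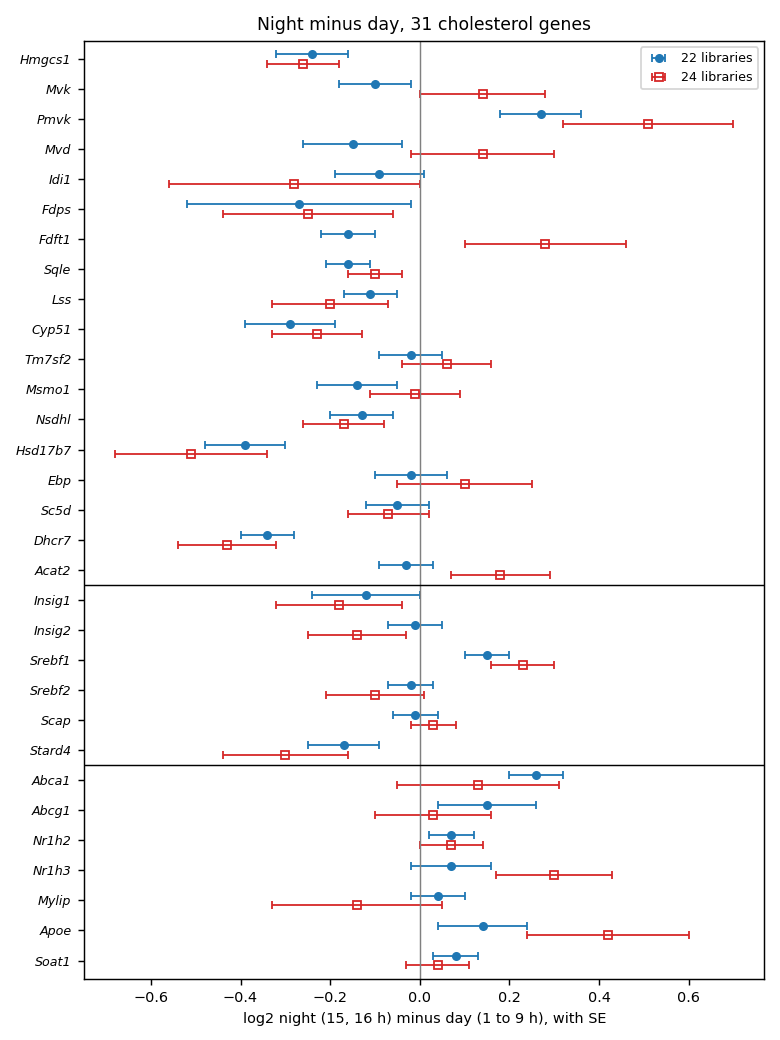
Log2 difference of night (15 h and 16 h) minus day (1 to 9 h) for each of the 31 genes (horizontal axis, 0 marked by a line), as filled circles for 22 libraries and open squares for 24 libraries, with bars for the SE; horizontal lines part the 3 roles. In 22 libraries 17 of 18 synthesis enzymes lie left of 0 and all 7 genes of the lowest block lie right of it, and in 24 libraries the points of Mvk, Mvd, Fdft1, Tm7sf2, Ebp, Acat2, Scap and Mylip lie on the other side.

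Of the SREBP genes, Srebf1 and Scap changed through the day in 22 libraries and the others did not pass any test. Night minus day was negative for 5 of the 6 genes in 22 libraries (median -0.02, log2) and for 4 of 6 in 24 (median -0.12). In the 22 libraries the sign turned in 4 of 26 alternative fits for Insig2, in 2 for Scap and in 1 for Srebf2, all of them close to 0. Srebf1, which encodes the SREBP-1 factors known mainly for fatty acid genes (ENSMUSG00000020538, chr11:60199089-60222581, minus strand), had 405, 426 and 380 CPM at 1 h, 490, 424 and 484 CPM at 9 h, 473 and 488 CPM at 15 h and 489, 508 and 469 CPM at 16 h. All mice of 15 h and 16 h lay above those of 1 h. Its 24 h component had a ratio of 0.25 ± 0.05 (log2, jackknife SE) with a peak at 13.3 ± 1.0 h (adjusted p = 0.0168), a call that held when any library was left out. The test over the 8 times gave an adjusted p of 0.0449 and held in 6 of 22 such fits, those without 0 h mouse 3, 1 h mouse 2, mouse 2 or 3 of 3 h, 5 h mouse 2 or 9 h mouse 2, with adjusted p up to 0.0933 in the others. That call was also lost with the mouse number as a replicate block (adjusted p = 0.0682). Without both dark times the adjusted p was 0.315 for a 24 h component and 0.289 over the 8 times. Night minus day was 0.15 (SE 0.05), from 485 ± 15.6 CPM at night (SD, n = 5) and 432 ± 34.6 CPM by day (SD, n = 14), with adjusted p = 0.0604. In 24 libraries the ratio was 0.32 ± 0.08 with adjusted p = 0.0543, and 15 h mouse 3 had 652 CPM.

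Scap, the sterol sensor that escorts SREBPs (ENSMUSG00000032485, chr9:110333288-110384950, plus strand), had a different shape. It had 374, 406 and 381 CPM at 0 h, 401, 352 and 410 CPM at 1 h, 315, 299 and 315 CPM at 9 h, 318 and 342 CPM at 15 h and 382, 368 and 345 CPM at 16 h. Every mouse of 0 h and 1 h lay above those of 9 h. The test over the 8 times gave an adjusted p of 0.0172, which held when any library was left out. Its 24 h ratio was 0.30 ± 0.06 (log2, jackknife SE) with a peak at 22.1 ± 0.8 h (adjusted p = 0.0296), an hour at which no sample was taken. That call was lost in 6 of 22 fits with 1 library left out, those without 0 h mouse 2, mouse 1 or 3 of 1 h, or any mouse of 9 h, with adjusted p of 0.0527 to 0.079. It was also lost without the 0 h libraries (adjusted p = 0.137), without both dark times (adjusted p = 0.0731) and in 24 libraries (adjusted p = 0.15, and 0.265 over the 8 times). The summed rod markers were highest at 0 h as well, and their part in this shape was not tested. For Scap 13.2% of the exonic bases are shared with 5830462I19Rik on the other strand. Between night and day it was not called, with 351 ± 24.8 CPM at night (SD, n = 5) and 349 ± 32.5 CPM by day (SD, n = 14), a log2 difference of -0.01 (SE 0.05).

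Srebf2, which encodes the factor known mainly for cholesterol enzymes, was not called, with its highest mean of 246 ± 6.59 CPM at 15 h (SD, n = 2) and its lowest of 220 ± 16.2 CPM at 16 h (SD, n = 3). Its night minus day was -0.02 (SE 0.05, adjusted p = 0.854). Insig1, an SREBP target that retains SCAP, had 108 ± 6.9 CPM at night and 117 ± 24.6 CPM by day (log2 difference -0.12, SE 0.12). The wide spread of Insig1 by day came with 189 CPM in 1 h mouse 2, where the other mice of that time had 120 and 96.9 CPM. The same mouse had the highest Hmgcs1 level, 113 CPM, of the 22 libraries. Insig2, the other retention protein, differed by -0.01 (SE 0.06) and Stard4, a carrier of sterol between membranes, by -0.17 (SE 0.08, adjusted p = 0.299). Per length, Srebf1 stood highest of the 6 genes at 78.6 CPM per kb, then Scap at 47.7, Insig1 at 37.0, Srebf2 at 32.3, Insig2 at 20.7 and Stard4 at 6.11. Only these levels per length, not the CPM, compare 1 gene with another.

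The 7 genes of LXR-driven efflux, uptake and storage all had a positive night minus day in 22 libraries, with Abca1 past the test, and 3 of the 7 were called in any test. Their median was 0.08 on the log2 scale, against -0.008 for all genes, of which 8827 of 18388 were positive. The smallest differences were 0.04 for Mylip (SE 0.06), 0.07 for Nr1h2 (SE 0.05) and 0.07 for Nr1h3 (SE 0.09). A list of 14 other LXR and efflux genes, described below, had a median of -0.03 in the 22 libraries. In 24 libraries 6 of 7 were positive, with a median of 0.07. At 15 h, in 2 mice, all 7 were above their own mean over the 8 times in the 22 libraries, by a median of 0.14. Of all genes 51.3% were above it there, and of the 7 Soat1 (0.017) and Mylip (0.032) lay closest to it. The 15 h mouse 3, left out here, lay below all 22 libraries for 4 of the 7 and above them for 2. At 16 h 4 of 7 were above their mean, by a median of 0.04. By day 4 of 7 were above at 9 h as well (median 0.04) and 5 of 7 at 3 h (median 0.01), with 2 of 7 at 1 h (-0.05), 1 of 7 at 5 h (-0.07) and 3 of 7 at 6 h (-0.19), and at 0 h 4 of 7 were (0.05).

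Abca1, the exporter that hands cholesterol to lipid-poor apolipoproteins (ENSMUSG00000015243, chr4:53030787-53159895, minus strand), rose at night in the 22 libraries. It had 151 and 185 CPM at 15 h and 180, 197 and 195 CPM at 16 h, against 119, 148 and 175 CPM as the lowest, median and highest of the day libraries. The 16 h mice lay above every day library, and 1 mouse of 15 h lay within the day range. The means were 182 ± 18.6 CPM at night (SD, n = 5) and 148 ± 14.6 CPM by day (SD, n = 14), a log2 difference of 0.26 (SE 0.06, adjusted p = 0.0149). The 24 h ratio was 0.32 ± 0.10 (log2, jackknife SE) with a peak at 16.6 ± 1.2 h (adjusted p = 0.0304), and the test over the 8 times gave an adjusted p of 0.0252. Without 15 h mouse 2 the night difference was 0.19 and not called (adjusted p = 0.223). The 24 h call was lost in 6 of 22 such fits, without mouse 1 or 3 of 5 h, 15 h mouse 2 or any mouse of 16 h, and the call over the 8 times in those without mouse 2 or 3 of 16 h (adjusted p of 0.0841 and 0.0865). Without both dark times the adjusted p was 0.762 and 0.356 in these tests. The libraries that stood apart went the other way, with 48.6 CPM in 15 h mouse 3 and 82.8 CPM in 6 h mouse 3. With them the night difference was 0.13 (SE 0.18, adjusted p = 0.741), and without 15 h mouse 2 it was -0.06 in that set. The window before Abca1, at chr4:53159896-53160145 (minus strand), is shown for the E-box in capitals at -147, and it held no CCAAT box.
Abca1: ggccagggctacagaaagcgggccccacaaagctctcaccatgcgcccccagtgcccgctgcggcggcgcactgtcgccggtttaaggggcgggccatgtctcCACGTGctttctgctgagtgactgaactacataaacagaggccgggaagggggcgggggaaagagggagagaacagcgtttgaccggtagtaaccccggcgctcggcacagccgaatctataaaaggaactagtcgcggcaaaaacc

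Abcg1, which exports cholesterol to mature lipoproteins, and Nr1h2, the LXR beta receptor, were called over the 8 times, and both were low at 6 h and high at 9 h. Abcg1 had 11.9 and 12.1 CPM at 6 h, 21.5, 24.2 and 19.2 CPM at 9 h and 14.5, 22.5 and 12.8 CPM at 16 h (adjusted p = 0.0393). Every 9 h mouse lay above both 6 h mice, and the means were 12.0 ± 0.171 CPM at 6 h (SD, n = 2) and 21.6 ± 2.49 CPM at 9 h (SD, n = 3). The call held in 11 of 22 fits with 1 library left out. It was lost without mouse 1 or 3 of 1 h, any mouse of 5 h, or mouse 1 or 2 of 6 h, 9 h or 15 h, with adjusted p up to 0.13 (9 h mouse 2), and with limma-voom (adjusted p = 0.0639). The 6 h mouse 3, left out here, had 16.5 CPM. Nr1h2 had 97.2 and 107 CPM at 6 h, 145, 133 and 119 CPM at 9 h and 132 and 128 CPM at 15 h (adjusted p = 0.0123), and this call held when any library was left out. The 6 h mouse 3 had 142 CPM of Nr1h2, in the range of the 9 h mice, and in 24 libraries the adjusted p over the 8 times was 0.366 for Nr1h2 and 0.362 for Abcg1.

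Apoe, the lipoprotein component that carries exported cholesterol, had the highest level per length of the 31 genes, at 2560 CPM per kb. In 22 libraries it had 6750 and 6490 CPM at 15 h and 5870, 5530 and 4720 CPM at 16 h, against 3960, 5700 and 6620 CPM as the lowest, median and highest by day. The ranges overlapped, and the difference of 0.14 (SE 0.10) was not called (adjusted p = 0.525). The 15 h mouse 3 had 18800 CPM and the 6 h mouse 3 had 8970 CPM. The 6 Müller glia markers, Apoe among them, summed to 10500 to 12400 CPM at night and 8760 to 12300 CPM by day in the 22 libraries. The largest parts of that sum were Apoe itself (median 5690 CPM) and Rlbp1 (3250 CPM), which is also in the RPE list. The medians of the others were 1570 CPM for Glul, 490 for Dkk3, 65.9 for Slc1a3 and 7.03 for Aqp4. Nr1h3, the LXR alpha receptor, had 13.2 ± 2.12 CPM at night and 12.8 ± 1.40 CPM by day. Mylip, a ubiquitin ligase that marks lipoprotein receptors for breakdown, had 80.2 ± 4.11 CPM at night and 77 ± 6.14 CPM by day. Soat1, which esterifies cholesterol for storage, had 253 ± 13.6 CPM at night and 235 ± 17.7 CPM by day (log2 difference 0.08, SE 0.05, adjusted p = 0.372). None of these 3 was called in any test.

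The 2 libraries that stood apart carried levels outside the range of the others in both directions, 15 h mouse 3 for more of the 31 genes than 6 h mouse 3. The 15 h mouse 3 lay outside the range of the 22 libraries for 26 genes, 11 above and 15 below. The 6 h mouse 3 did so for 13 genes, 6 above and 7 below. Against the other mice of 15 h, mouse 3 differed most in Idi1 (-3.64 on the log2 scale), Mylip (-2.22), Fdft1 (1.81), Abca1 (-1.79) and Apoe (1.5). Within synthesis it was above all 22 libraries for 8 of 18 enzymes and below them for 7. The 6 red blood cell markers summed to 8770 CPM in 15 h mouse 3 and 3330 in 6 h mouse 3, against 400 to 1930 CPM in the other 22, and the RPE markers to 116000 and 56700 CPM. The RPE markers of 15 h mouse 3 went both ways: Ttr, which took up 64600 CPM of that sum, Rgr, Rpe65, Rdh5, Pmel and Rlbp1 lay above the range of the 22 libraries, and Tyrp1, Slc6a20a and Otx2 lay below it, with 802, 585 and 321 CPM. What part blood or any other source had in these levels was not tested.

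Other genes of lipid and sterol handling were followed in 7 lists, with counts given for the 22 libraries, where 15.6% of all genes were called over the 8 times, 6.12% for a 24 h component and 4.63% between night and day. The median night minus day of a list lay between -0.06 (log2, lipoprotein uptake) and 0.03 (SREBP processing). In 24 libraries 5 genes of these lists were called in any test, Acaca, Gramd1b, Por, Cyp27a1 and Fbxw7. Of 16 genes of fatty acid synthesis, a pathway known to be driven by SREBP-1, 8 were called over the 8 times, against 15.6% of all genes, 3 for a 24 h component and 0 between night and day. Acaca, acetyl-CoA carboxylase, had a mean of 77.1 ± 4.0 CPM at 0 h and 53.5 ± 4.55 CPM at 9 h, with a 24 h ratio of 0.59 (log2) and a peak at 21.0 h (adjusted p = 2.81e-05, and 0.00119 in 24 libraries). Fasn, fatty acid synthase, had 236 ± 25.4 CPM at 1 h and 172 ± 4.09 CPM at 9 h (adjusted p for a 24 h component 0.0035), and Scd2, a desaturase, had 1400 ± 149 CPM at 1 h and 950 ± 113 CPM at 9 h (adjusted p 0.0235). Acly, ATP citrate lyase, and the desaturases Fads1 and Fads2 were highest at 1 h and lowest at 9 h as well, Elovl6, an elongase, was highest at 0 h and lowest at 3 h, and Me1, malic enzyme, was highest at 6 h and lowest at 9 h. At 9 h 7 of these 8 genes thus had their lowest mean, and of the list genes not called over the 8 times only Pnpla3 did. Of the 31 genes, Scap, Insig1, Insig2, Idi1 and Sqle were lowest at 9 h too. Srebf1 was lowest at 1 h, with 404 ± 22.6 CPM against 466 ± 36.9 CPM at 9 h (SD, n = 3 each). The share of all genes with their lowest mean at 9 h was not counted.

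Of 13 genes of lysosomal and membrane sterol handling, 3 were called over the 8 times (all genes 15.6%) and 3 for a 24 h component (all genes 6.12%). Gramd1b, which moves cholesterol from the plasma membrane to the endoplasmic reticulum, rose at night in both sets. It had 211 ± 24 CPM at night and 138 ± 14.9 CPM by day in 22 libraries, a log2 difference of 0.57 (SE 0.05, adjusted p = 2.5e-07), and 0.54 (SE 0.09, adjusted p = 0.0018) in 24. Lipa, lysosomal acid lipase, which frees cholesterol from its esters, fell at night by 0.16 on the log2 scale (SE 0.05, adjusted p = 0.0411). Osbp, a sterol exchanger, was called over the 8 times (adjusted p = 0.0223), with 72.7 ± 3.59 CPM at 0 h and 60.3 ± 3.07 CPM at 9 h. Of 6 lipoprotein uptake genes Vldlr, Lrp8 and Scarb1 were called over the 8 times. Vldlr, the very-low-density lipoprotein receptor, had 244 ± 32.2 CPM at 0 h and 164 ± 15.8 CPM at 9 h (adjusted p = 0.0011), and Lrp8, an APOE receptor, had 367 ± 10.9 CPM at 5 h and 267 ± 30 CPM at 9 h (adjusted p = 0.0143). Scarb1, which takes up cholesterol from high-density lipoprotein, fell at night, with 144 ± 5.66 CPM against 169 ± 12.9 CPM by day (log2 difference -0.24, SE 0.05, adjusted p = 0.00358). Of 9 other isoprenoid and sterol enzymes only Por was called, the reductase that supplies electrons to Cyp51 and Sqle. Its level was 165 ± 10.3 CPM at night and 189 ± 19.4 CPM by day (log2 difference -0.19, SE 0.05, adjusted p = 0.0168), and its 24 h component was called in 24 libraries too (adjusted p = 0.0448).

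Among the SREBP processing genes tested, Rnf145 and Fbxw7 were called over the 8 times. Rnf145, a ubiquitin ligase known to act on SCAP, rose at night, with 146 ± 4.71 CPM against 126 ± 8.74 CPM by day (log2 difference 0.21, SE 0.04, adjusted p = 0.00356). Fbxw7, which marks nuclear SREBPs for breakdown, rose at night by 0.22 (SE 0.05, adjusted p = 0.0142) in 22 libraries and by 0.27 (SE 0.06, adjusted p = 0.0306) in 24. Of 14 other LXR and efflux genes tested, 1 was called over the 8 times, Rxra, the partner receptor of LXR (adjusted p = 0.0399), and 0 between night and day. Of 5 oxysterol enzymes tested, Cyp27a1, which makes an LXR ligand, was called over the 8 times (adjusted p = 3.2e-05, and 0.0246 in 24 libraries), with 93.3 ± 5.72 CPM at 3 h and 132 ± 7.97 CPM at 5 h. Cyp7b1, which breaks oxysterols down, was called for a 24 h component (adjusted p = 0.0458).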

How the data were processed

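RNA-seq of RPE from 24 mice was deposited as raw counts of reads per gene, 1 column per mouse, with Ensembl identifiers and a gene length in bases. Per the submitters' processing notes STAR, HTSeq and the build mm10 were used, and their versions, roles and settings are not given in the sources used here. Per the labels' protocols total RNA was made into libraries by a kit without strand information. All 24 columns of the authors' counts were mapped to samples by name. They hold whole numbers, and no 2 of them agreed within sampling noise (276 pairs, lowest chi-square 6.08 per degree of freedom). The deposited gene length was used for CPM per kilobase.

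Genes were kept by filterByExpr (minimum count 10), which left 18065 of 54532 genes and 99.92% of counts in 24 libraries and 18388 genes in 22. edgeR 4.0.16 in R 4.3.3 gave TMM factors, dispersions, a robust quasi-likelihood fit and 3 tests, adjusted over all genes: an F test over the 8 times, an F test of cosine and sine terms with a 24 h period, and night minus day. Peak and ratio have jackknife errors over libraries. The fit on 22 libraries leaves out mouse 3 of 6 h and mouse 3 of 15 h. DESeq2 1.42.0 and limma 3.58.1 were alternatives. The scripts were tested on simulated data.

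Values per mouse are given for genes called in any test and for the 2 genes of each role with the highest level per length, and list genes are named where called. These members and lists were chosen with earlier results of these data known. The lists held fatty acid synthesis, isoprenoid and sterol enzymes, sterol handling, lipoprotein uptake, LXR and efflux genes, oxysterol enzymes and SREBP processing, where Spring1 was not found. A result of the last list is not reported here. Overlap and shared 50-base words were checked in GENCODE vM21 (GRCm38), which held all 31 genes, 29 with the file's coordinates, with 10 sharing exonic bases with another gene. Tm7sf2 and Abcg1 differed, so the annotation release may differ. Promoters are from RefSeq (GRCm38.p6). The mouse numbers do not pair libraries across times.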

Additional observations from a re-analysis of the deposited data

How the results depend on the processing

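In 24 libraries, other settings moved the counts of called genes as follows. Over the 8 times, 0 of the 31 and 195 of all genes became 9 and 2870 in 22 libraries and 3 and 1930 with DESeq2, while all genes called were 98 without 0 h and 499 without 15 h and 16 h. For a 24 h component, 0 and 302 became 5 and 1126 in 22 libraries and 3 and 763 with DESeq2, 1 of the 31 with a mean of at least 1 CPM, and 138 of all genes without 0 h. Between night and day, 0 and 251 became 3 and 852 in 22 libraries and 2 and 651 with DESeq2, 1 of the 31 with limma-voom or a mean of at least 1 CPM, and 143 of all genes with no filter. Leaving out 1 library gave 0 to 2, 0 to 1 and 0 to 4 of the 31, and 118 to 1215, 203 to 789 and 123 to 1172 of all genes. In 22 libraries, with alternatives chosen after seeing the data, the counts of the 31 over the 8 times and for a 24 h component were 5 and 0 without 15 h and 16 h, where all genes called were 1811 and 577, and 7 between night and day with DESeq2. All genes called were 4416 over the 8 times and 1725 for a 24 h component with DESeq2, and 725 for the 24 h component without 0 h. Leaving out 1 library gave 5 to 11, 3 to 6 and 1 to 4 of the 31, lowest without 6 h mouse 2 or 15 h mouse 1 in the first test and without 15 h mouse 2 in the other 2, and 2211 to 3314, 884 to 1208 and 364 to 954 of all genes. The cause of these moves was not tested. Night minus day changed sign for Scap (-0.01 in 22 libraries, and -0.01 to 0.05 in 24 and -0.04 to 0.01 in 22 when 1 library was left out), for Abca1 (-0.06 to 0.32 in 24) and for Abcg1 (-0.11 to 0.12 in 24, with -0.01 and -0.04 among them). Of 26 alternatives in 22 libraries it also turned in 4 for Ebp and Insig2, 2 for Tm7sf2 and 1 for Srebf2, and of 30 in 24 libraries in 5 for Msmo1 and 1 each for Mvk, Mvd, Fdft1, Tm7sf2, Ebp, Acat2, Srebf2, Mylip and Soat1. None of these genes was called between night and day in those sets. With the mouse number as a replicate block, 1 of the 31 was called between night and day in 24 libraries, Dhcr7 (adjusted p = 0.0446), in 22 libraries the call of Srebf1 over the 8 times was lost (adjusted p = 0.0682), and the numbers did not pair the libraries: 17 of 84 pairs with the same number had a correlation above 0.1 (median 0.0163), against 30 of 168 pairs with different numbers (median -0.00548). Fdps, at 0.99 CPM, is the gene of the 31 that depth limits most.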
